A study of Bubalus bubalis with 12 samples.

Results

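TEKT3, TEKT4, ROPN1L, RSPH9 and TCTEX1D1 are 5 genes whose products belong to, or are related to, the flagellum of the sperm cell. They were taken by exact match to the gene name printed for each array probe, and all 5 were found among the 9328 gene symbols on the array, with 40 probes between them. The study measured 2 histone marks on DNA, H3K4me2 (histone H3 dimethylated at lysine 4) and H3K27me3 (histone H3 trimethylated at lysine 27), in sperm of bulls of the water buffalo, Bubalus bubalis, collected as cryopreserved semen. Each of 3 subfertile bulls (SF1, SF4 and SF5) and 3 high-fertile bulls (HF2, HF3 and HF5) gave 1 array per mark, 12 arrays in all, and the labels name no treatment, age or breed. Every array carried immunoprecipitated DNA in Cy5 and that bull's input DNA in Cy3, without a dye swap. A value is the log2 ratio of Cy5 over Cy3, averaged over a gene's probes, with the median probe of the array at 0, so a difference of 1 is a factor of 2 and no value is an absolute amount of a mark. All 5 genes had been singled out with results of these arrays known, TEKT3 and ROPN1L for H3K4me2 and TCTEX1D1 for H3K27me3, so the differences between fertility groups given for them are descriptions.

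The flagellum is built around the axoneme, a ring of doublet microtubules around a central pair, bent by dynein motors that are kept in time by radial spokes. Tektins are filament proteins bound inside the doublets, and the principal piece of the mammalian sperm tail is wrapped in a fibrous sheath that anchors signalling enzymes. Most sperm histones are exchanged for protamines, H3K4me2 is known from promoters of active or poised genes among the retained nucleosomes, and H3K27me3 is placed by Polycomb at silenced genes.

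The probes are 60 bases long, were designed on the cattle build HGSC Btau_3.1, and lie mostly in what the array's annotation calls CpG islands. They are shown because the places probed decide what each gene value stands for. The letters and CpG counts are those of the cattle-designed probes. Whether the buffalo DNA has the same sequence at these places was not tested. Sequences are given as the array file lists them, with CpG dinucleotides in capitals. Where probes shown on neighbouring lines overlap, their shared letters run from one line into the next. The 4 TEKT3 probes start 4 to 7 bases apart at chr19:33707167-33707241, and the first and last of them read:
TEKT3 probe 1: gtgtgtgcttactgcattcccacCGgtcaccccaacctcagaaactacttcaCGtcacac
TEKT3 probe 4: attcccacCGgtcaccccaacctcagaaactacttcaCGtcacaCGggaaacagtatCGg

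The 4 TEKT4 probes, all in CpG islands, fall in 3 separate places within chr25:1323234-1326379. The array's annotation gives probes 2 and 3 the same interval, chr25:1324800-1325507, which is longer than a probe. Probe 2 carries the same 16 bases at its start and at its end (from bases 1 and 45), put in capitals in its second line:
TEKT4 probe 1: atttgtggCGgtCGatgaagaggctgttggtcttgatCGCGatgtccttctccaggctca
TEKT4 probe 2: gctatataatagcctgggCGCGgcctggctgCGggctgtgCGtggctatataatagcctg
TEKT4 probe 2, repeat: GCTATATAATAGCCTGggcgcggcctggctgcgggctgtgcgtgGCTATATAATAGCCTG
TEKT4 probe 3: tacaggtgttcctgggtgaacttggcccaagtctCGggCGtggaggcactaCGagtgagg
TEKT4 probe 4: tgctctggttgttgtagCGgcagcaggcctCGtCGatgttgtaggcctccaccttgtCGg

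ROPN1L has 27 probes, of which 24 are annotated to CpG islands, 2 to coding sequence and 1 to the promoter, in 5 stretches of chr20:66536135-66554094. The second stretch holds 6 probes at chr20:66538880-66538959 and the fourth 18 probes at chr20:66552874-66552996, so the fourth carries 18 of the 27 values in the gene's mean. The outermost probes of both stretches are shown with probe 19 from the middle of the fourth, because values changed between the ends and the middle. The probes of the fourth stretch hold 6 CpGs at its start, 3 in its middle and 5 at its end:
ROPN1L probe 2: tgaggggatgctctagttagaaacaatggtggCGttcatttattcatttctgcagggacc
ROPN1L probe 7: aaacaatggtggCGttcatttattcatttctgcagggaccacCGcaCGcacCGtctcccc
ROPN1L probe 9: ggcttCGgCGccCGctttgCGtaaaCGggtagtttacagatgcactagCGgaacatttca
ROPN1L probe 19: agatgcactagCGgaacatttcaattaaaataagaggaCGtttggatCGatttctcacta
ROPN1L probe 26: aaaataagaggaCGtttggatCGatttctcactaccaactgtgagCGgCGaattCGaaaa

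The 3 RSPH9 probes are staggered by 4 bases at chr23:17778010-17778077 in a CpG island. The 2 TCTEX1D1 probes overlap at chr3:84267855-84267949, are annotated to the promoter, and hold no CpG at all. Their mean G and C share was 35.8%, against 51.7% for RSPH9, 53.3% for TEKT3, 57.9% for TEKT4 and 42.7% for ROPN1L:
RSPH9 probe 1: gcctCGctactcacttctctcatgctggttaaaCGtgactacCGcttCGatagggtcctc
TCTEX1D1 probe 1: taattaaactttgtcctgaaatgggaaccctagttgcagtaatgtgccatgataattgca
TCTEX1D1 probe 2: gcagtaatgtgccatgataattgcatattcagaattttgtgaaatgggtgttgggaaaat

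Between 97.07% and 99.94% of an array's probes were well above background in the input colour, and between 93.91% and 99.98% in the ChIP colour. The SF5 and HF5 arrays for H3K4me2 had the lowest ChIP signals, with array medians of 356 and 588 against 932.5 to 1360 on the other 4, and the lowest shares above background (95.69% and 93.91%). In the limma fit over the 6805 genes with at least 2 probes, 0 genes passed an adjusted p of 0.05 between subfertile and high-fertile bulls for either mark, with a lowest adjusted p of 1 for H3K4me2 and 0.705 for H3K27me3. At an unadjusted p under 0.05 there were 198 genes for H3K4me2 (2.91%) and 277 for H3K27me3 (4.07%), and 0 of 175796 probes passed after adjustment for either mark. With 3 bulls a group, the median gene's 95% confidence interval reached 1.2 to either side of the difference for H3K4me2 and 1.1 for H3K27me3. Ratios of a histone mark do not identify a cell type, and the lists of other cells had few measured genes. For H3K4me2 the bull medians of 2 leukocyte genes, 5 epithelial genes and 2 late germ cell genes overlapped between the groups. Those of 2 somatic testis genes ran from 0.09 to 0.76 in subfertile bulls and from -0.7 to -0.14 in high-fertile bulls for H3K4me2, and from -0.14 to 0.59 in subfertile and -0.28 to 0.51 in high-fertile bulls for H3K27me3. For H3K4me2 the difference was 1.49 at one of the somatic testis genes and -0.02 at the other, so a single gene set that list apart. The leukocyte and epithelial lists each also held 1 gene higher in every subfertile bull for H3K4me2, CSF1R (1.08) and CLDN4 (1.12). Such a separation held for 3.1% of all genes. The part of other cells in the differences of the flagellum genes was not tested.

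TEKT3 and TEKT4 encode tektins, structural parts of the doublets. TEKT3 had H3K4me2 ratios of 0.34, 0.42 and 1.41 in subfertile bulls SF1, SF4 and SF5, against -0.02, -0.35 and -1.28 in high-fertile bulls HF2, HF3 and HF5. Every subfertile bull lay above 0 and every high-fertile bull below it, with means of 0.72 ± 0.59 and -0.55 ± 0.65 (SD, n = 3 each). The difference was 1.28 with a 95% confidence interval from 0.1 to 2.46. That interval took in 0 after within-array loess (0.98), in the authors' deposited value table (0.96), with the median of the probes (1.12), and without SF4 (1.43), SF5 (0.93), HF3 (1.37) or HF5 (0.91). TEKT3 was the 1 gene of the 5 whose H3K4me2 values did not overlap between the groups, which held for 6.58% of all genes (3.1% with subfertile bulls higher), and nothing is read from that count because the gene was chosen on this contrast. All 4 probes showed the same separation, which 7.17% of all probes did in either direction. They overlap over most of their length, so they are not separate measurements and add no support. Probe 4, the one with most CpGs, gave the widest difference at 1.75, against 1.03 to 1.17 at the other 3.

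SF5 gave the top TEKT3 value and HF5 the bottom one, and these were the bulls with the dimmest H3K4me2 arrays. Without both bulls the TEKT3 difference was 0.57, and with the Cy5 signal divided by an input averaged over the 6 bulls, in place of each bull's own, it was 0.78, and either interval took in 0. For H3K27me3, TEKT3 gave 0.45, 0.35 and 0.11 in subfertile bulls and -0.32, -0.28 and 0.1 in high-fertile bulls. The means were 0.3 ± 0.18 and -0.17 ± 0.24 (SD, n = 3 each), a difference of 0.47 with an interval from -0.35 to 1.29. The groups were separated only by the small step between SF5 and HF5. For this mark 2 of the 5 genes had no overlap, TEKT3 with subfertile bulls higher and TCTEX1D1 with them lower. This held for 8.57% of all genes, 4.56% with subfertile bulls lower. Nothing is read from that count either, because TCTEX1D1 was chosen on this contrast.

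TEKT4 had H3K4me2 ratios of 0.06, 0.47 and 1.13 in subfertile bulls, against 0.3, 0.34 and 0.59 in high-fertile bulls. The groups overlapped, with a difference of 0.14 and an interval from -0.87 to 1.15. For H3K27me3 it gave 0.14, 0.47 and 0.48 in subfertile bulls and 0.18, 0.04 and 0.42 in high-fertile bulls, a difference of 0.15 with an interval from -0.67 to 0.97. TEKT4 was the steadiest of the 5 genes, and the only one above 0 for both marks in 6 of 6 bulls. A value above 0 in all 6 bulls was found for 2.01% of genes for H3K4me2 and 1.63% for H3K27me3. Its mean over 6 bulls was 0.48 ± 0.36 for H3K4me2 and 0.29 ± 0.19 for H3K27me3 (SD, n = 6 each), and limma's test against 0 gave adjusted p-values of 0.933 and 0.936. That test passed 0 of 6805 genes for either mark, with 4.44% and 5.29% at an unadjusted p under 0.05.

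**Figure D1:**
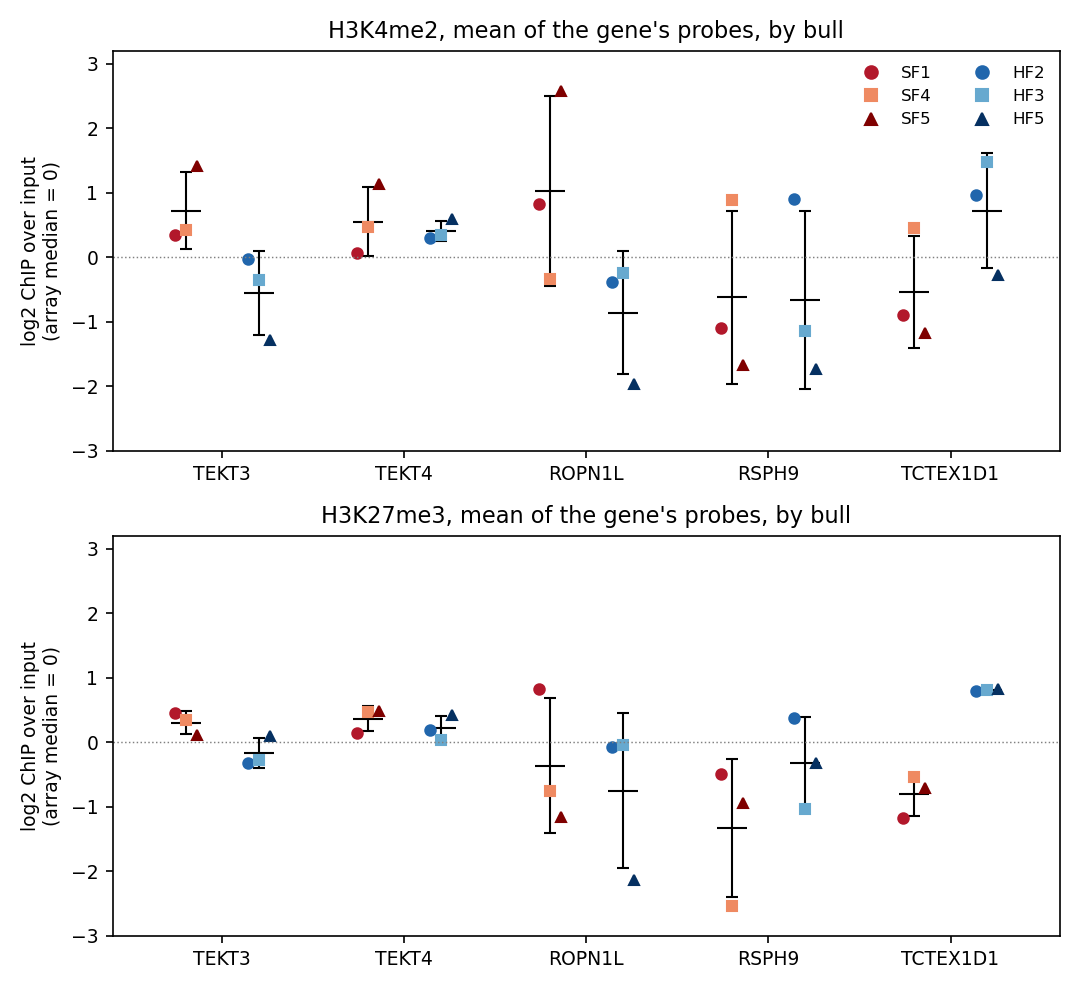
Log2 of ChIP over input, with the array median at 0, for each gene and bull, H3K4me2 above and H3K27me3 below. Subfertile bulls are to the left of high-fertile bulls, horizontal bars are group means and error bars SDs (n = 3). TEKT3 separates the groups for H3K4me2 and TCTEX1D1 for H3K27me3, TEKT4 stays above 0 throughout, and ROPN1L and RSPH9 spread over several log2 units within a group.

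Within TEKT4 the places measured did not move together. The H3K4me2 difference was 0.45 at probe 1, -0.13 at the repeat-bearing probe 2, 0.97 at probe 3 and -0.73 at probe 4. Probe 3 read 2.35 in SF5 but 0.14 and 0.29 in the other subfertile bulls, against -0.09, -0.09 and 0.06 in high-fertile bulls. Probe 2 stayed between -0.27 and 0.73 on all 12 arrays. The gene mean of TEKT4 is therefore an average over places with differences of either sign.

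RSPH9 encodes a component of the radial spoke head. Its H3K4me2 ratios were -1.09, 0.89 and -1.67 in subfertile bulls, against 0.9, -1.14 and -1.73 in high-fertile bulls. Each group held 1 bull near 0.9 and 2 bulls below -1, and the difference was 0.04 with an interval from -1.89 to 1.97. Within a bull the 3 overlapping RSPH9 probes lay close together on the H3K4me2 arrays, with an SD of 0.05 to 0.28. On the H3K27me3 arrays the SD was 0.64 in SF4 and 0.06 to 0.25 in the other bulls. For H3K27me3 the values were -0.5, -2.54 and -0.95 in subfertile bulls and 0.38, -1.03 and -0.32 in high-fertile bulls. The difference was -1.01 with an interval from -2.43 to 0.41, and the groups overlapped.

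The 2 marks lay furthest apart at RSPH9 in SF4, where H3K4me2 minus H3K27me3 was 3.43, against -1.42 in HF5 and -0.72 to 0.52 in the other 4 bulls. SF4 had 0.89 for H3K4me2, the 94.6th percentile of all genes on that array, and -2.54 for H3K27me3, the 0.294th percentile. Its input signal was much alike on both arrays (403 and 336), whereas the ChIP signal was 749 for H3K4me2 and 58.8 for H3K27me3. Without SF4 the H3K27me3 difference of RSPH9 was -0.4, and the H3K4me2 difference ran from -0.72 to 0.81 as each bull was left out in turn.

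ROPN1L encodes ropporin-1-like, a protein that binds A-kinase anchoring proteins in the sperm tail. Averaged over 27 probes, H3K4me2 was 0.83, -0.34 and 2.58 in subfertile bulls, against -0.38, -0.24 and -1.96 in high-fertile bulls. The groups overlapped through SF4, with means of 1.02 ± 1.47 and -0.86 ± 0.96 (SD, n = 3 each) and a difference of 1.88, interval 0.09 to 3.68. That interval took in 0 with normexp background correction (1.16), with adjustment for G and C share (1.93), with genes of 1 probe added to the fit (1.88), and without SF1 (1.98), SF5 (1.11), HF2 (2.12) or HF5 (1.33). SF5 stood at the 97.4th percentile of genes on its array and HF5 at the 1.65th. For H3K27me3 the values were 0.83, -0.76 and -1.16 in subfertile bulls and -0.08, -0.04 and -2.14 in high-fertile bulls, a difference of 0.39 with an interval from -1.27 to 2.06. SF5 thus had the highest H3K4me2 value and the lowest H3K27me3 value of the subfertile bulls, a gap of 3.74 between its 2 arrays, against -0.29 to 0.42 in the other 5 bulls.

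The fourth stretch carried the ROPN1L difference. There the mean H3K4me2 ratio was 1.48, -0.98 and 3.35 in subfertile bulls, against -0.42, -0.55 and -2.53 in high-fertile bulls, a difference of 2.45. At the second stretch the difference was 1.01, from -0.5, 1.45 and 1.87 in subfertile and -0.47, 1.17 and -0.92 in high-fertile bulls. The single probes of stretches 1, 3 and 5 differed by 0.21, -0.09 and 0.56. When overlapping probes were averaged first, so that each stretch counted once, the ROPN1L difference was 0.83 in place of 1.88.

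**Figure D2:**
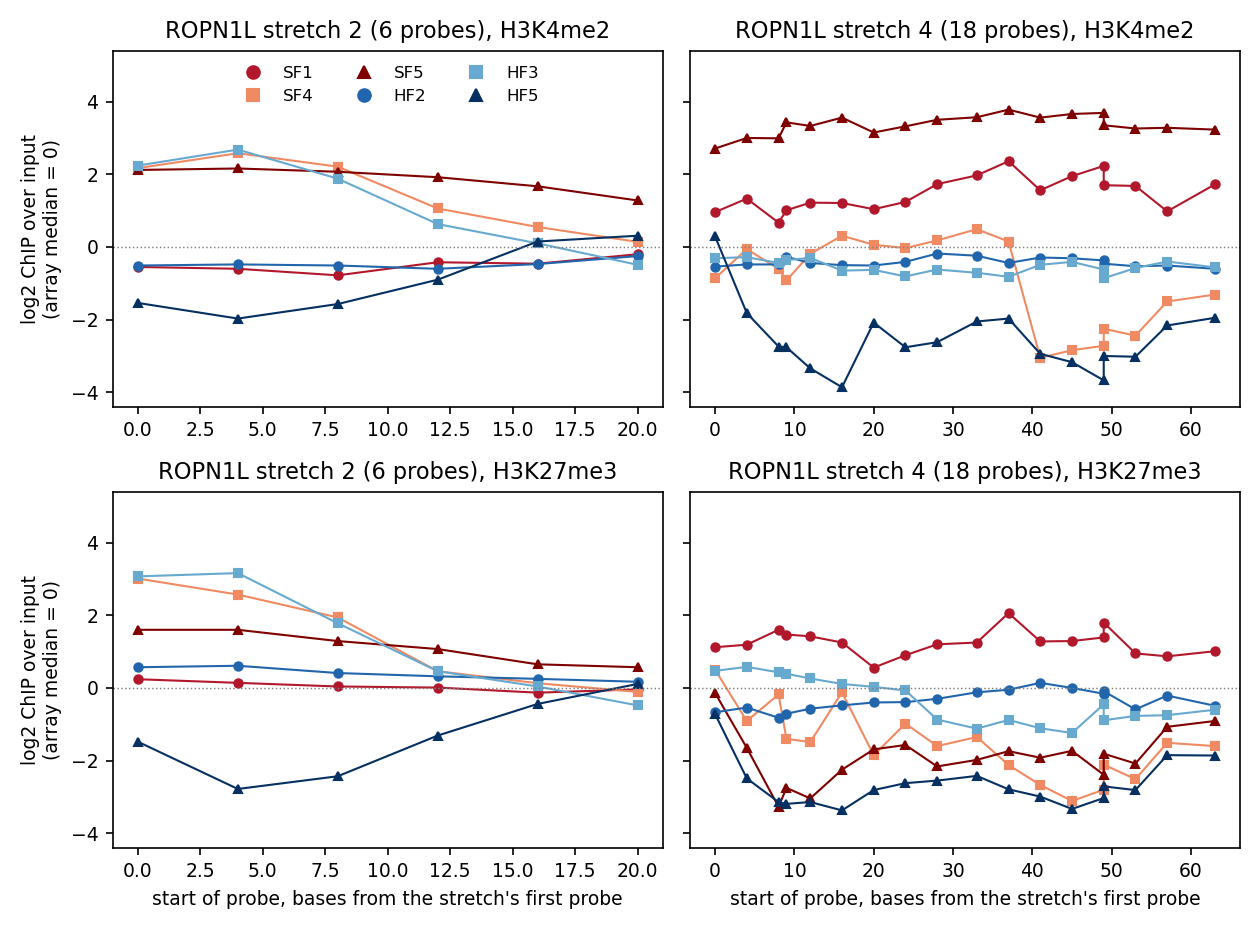
Log2 ratio of ChIP over input for each probe of the second and the fourth ROPN1L stretch, by the distance of the probe's start from the first probe of the stretch, H3K4me2 above and H3K27me3 below, 1 line per bull. In the fourth stretch SF5 stays near 3 for H3K4me2 and below 0 for H3K27me3, and SF4 steps down after the eleventh probe for H3K4me2, with ChIP not well above background at 9 of the 27 ROPN1L probes on that array.

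Neighbouring probes could be followed along the stretch within a bull, though many of its values lie near background. Across the fourth stretch SF5 held between 2.71 and 3.78 at all 18 probes for H3K4me2, while for H3K27me3 it ran from -0.14 at the first probe to -3.27 at probe 11. SF4 read 0.15 for H3K4me2 at probe 19 and -3.05 at probe 20, whose start lies 4 bases further on. ChIP was not well above background at these probes on 4 and 5 of the 12 arrays, so low readings here may be floor values and the size of such a step is uncertain. HF2 and HF3 stayed between -0.86 and -0.18 for H3K4me2 over the whole stretch. Of the 27 probes, 8 separated the groups for H3K4me2 and 0 for H3K27me3, beside 7.17% and 8.03% of all probes. All 8 are overlapping probes of the fourth stretch, and each had ChIP not well above background on 3 to 5 of the 12 arrays. They are not separate measurements and the gene was chosen on H3K4me2, so nothing is read from the count. Probes 22 and 23 have identical letters, and their values differed by a median of 0.43 and at most 0.69 over the 12 arrays.

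At the second stretch the same sliding window changed the reading in other bulls. SF4 gave 2.58 for H3K4me2 at probe 3 and 0.14 at probe 7, and HF3 gave 2.68 and -0.49 at the same probes. For H3K27me3, SF4 gave 2.57 at probe 3 and -0.11 at probe 7, and HF3 gave 3.16 and -0.48. SF5 was high as well, with 2.16 at probe 3 and 1.28 at probe 7 for H3K4me2 and 1.6 and 0.57 for H3K27me3. The high readings at probe 3 thus came from SF4 and SF5 among subfertile bulls and from HF3 among high-fertile bulls, and the groups overlapped at both probes.

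The input DNA at ROPN1L differed between the groups as well. Averaged over each bull's 2 arrays, the centred log2 input signal at ROPN1L was -2.33, -2.61 and -1.67 in subfertile bulls, against -0.43, -1.05 and -0.45 in high-fertile bulls. Every subfertile bull lay below every high-fertile bull, with a difference of -1.56 and an interval from -2.37 to -0.76. The input is the denominator of the ratio, so this was no independent measure. In the fourth stretch the input was -3.87, -3.7 and -2.81 in subfertile bulls, against -0.89, -1.56 and -1.14 in high-fertile bulls. At the second stretch it was 0.82, -0.72 and 0.74 in subfertile and 0.98, -0.68 and 1.06 in high-fertile bulls, so the deficit of input did not extend over the gene.

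**Figure D3:**
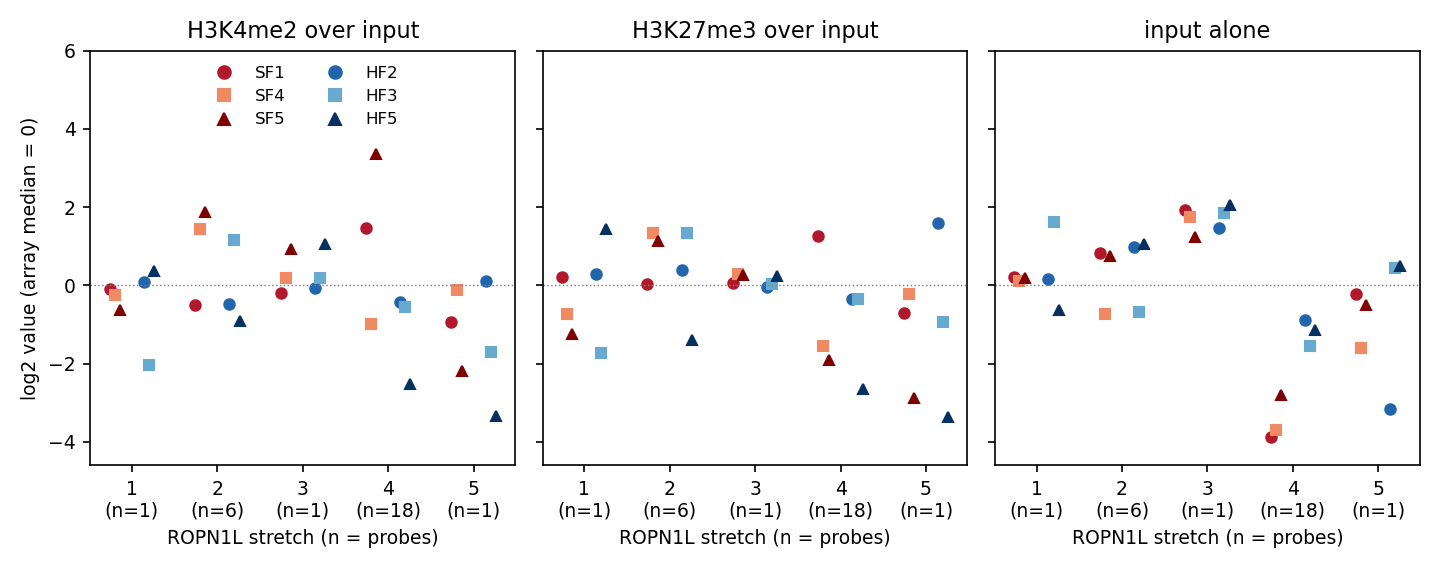
Mean log2 value of the probes in each of the 5 ROPN1L stretches by bull, for H3K4me2 over input, H3K27me3 over input and the input alone, each relative to the array median. The fourth stretch is the one place where the input of all 3 subfertile bulls lies below that of all 3 high-fertile bulls.

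With the Cy5 signal of each ROPN1L probe divided by the averaged input, the H3K4me2 difference was 0.32 in place of 1.88, and the H3K27me3 difference was -1.26 in place of 0.39. Signals were also dim. ChIP was not well above background at 9 of 27 probes in SF4 and 15 in HF5 for H3K4me2, and at 14 in SF4, 15 in SF5 and 9 in HF5 for H3K27me3, and the input was not at 3 to 7 probes in SF1 and SF4. Without SF5 the H3K4me2 difference was 1.11, and without both SF5 and HF5 it was 0.55.

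TCTEX1D1 encodes a protein of the Tctex-type dynein light chain family, named DYNLT5 in the current buffalo annotation. Its H3K27me3 ratios were -1.18, -0.54 and -0.71 in subfertile bulls, against 0.79, 0.81 and 0.83 in high-fertile bulls. The 3 high-fertile values were nearly the same and all subfertile bulls lay below 0, with means of -0.81 ± 0.33 and 0.81 ± 0.02 (SD, n = 3 each). The difference was -1.62 with an interval from -2.45 to -0.78, which took in 0 after within-array loess (-1.51) and in the authors' deposited value table (-1.86). For H3K4me2 the values were -0.89, 0.45 and -1.17 in subfertile bulls and 0.96, 1.47 and -0.27 in high-fertile bulls, a difference of -1.26 with an interval from -2.67 to 0.16. SF4 and HF5 made the groups overlap for this mark. On the H3K4me2 arrays neither probe was well above background in the ChIP of HF5 and SF5 or in the input of HF3. The values of these bulls, also the one of HF5 that made the overlap, may thus be floor readings.

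The high-fertile bulls were less alike probe by probe. In subfertile SF5 the H3K27me3 ratio was -0.65 at probe 1 and -0.77 at probe 2, while in high-fertile HF5 the probes gave -0.29 and 1.95, and in high-fertile HF3 1.37 and 0.26. Both TCTEX1D1 probes separated the groups for H3K27me3 even so, as 8.03% of all probes did. The 2 probes overlap and the gene was chosen on this contrast, so nothing is read from that. The fragment was dim. The mean input signal on the H3K27me3 arrays was 143, 160 and 91.1 in subfertile bulls and 52, 75.9 and 31.5 in high-fertile bulls, and 1 of the 2 probes was not well above background in the input of each high-fertile bull. ROPN1L had 132 in SF1 and 195 in SF5 on the same arrays and 548, 376 and 482 in high-fertile bulls, so TCTEX1D1 was dimmer than ROPN1L in SF5 and the high-fertile bulls, and ROPN1L was the dimmer of the pair in SF1 and SF4.

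The centred log2 input of TCTEX1D1 was -2.34, -2.24 and -3.19 in subfertile bulls, against -3.66, -4.02 and -4.33 in high-fertile bulls. The groups did not overlap, and the difference of 1.41, interval 0.59 to 2.23, had the opposite sign to that of the ratios. Against the averaged input the H3K27me3 difference was -0.18 in place of -1.62, and the H3K4me2 difference 0.02 in place of -1.26. With normexp background correction the H3K27me3 difference was -0.5 with an interval that took in 0, and with spots near background left out -0.91.

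**Figure D4:**
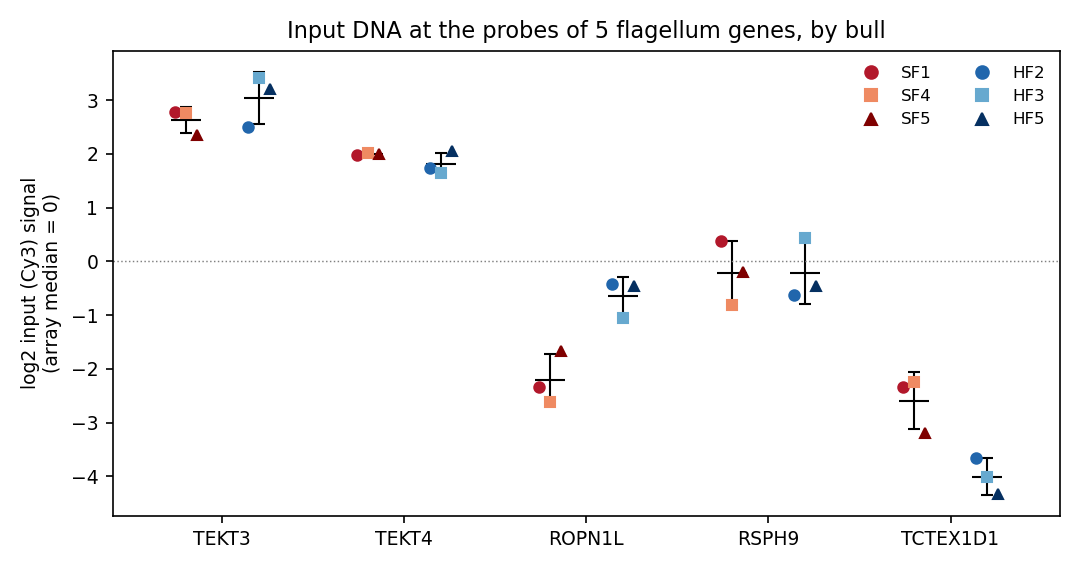
Centred log2 input (Cy3) signal at each gene by bull, subfertile bulls to the left of high-fertile bulls, with group means and SDs (n = 3). ROPN1L input is lower and TCTEX1D1 input higher in all subfertile bulls, whereas the groups overlap at TEKT3, TEKT4 and RSPH9.

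Among all genes, the input of the groups did not overlap for 7.77%, with 4.6% higher and 3.17% lower in subfertile bulls, and limma called 0 of 6805 genes in the input (241 at an unadjusted p under 0.05, which is 3.54%). At the other 3 genes the input overlapped between groups. TEKT3 input was 2.78, 2.76 and 2.35 in subfertile bulls, against 2.5, 3.42 and 3.21 in high-fertile bulls, a difference of -0.41. TEKT4 input differed by 0.19 and RSPH9 input by 0. Whether the amount of input DNA or the brightness of the spots has a part in the ratio differences of ROPN1L and TCTEX1D1 was not tested.

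One slide held a bull of each group, SF1 and HF5, and every other slide held 1 bull, where bull and slide cannot be told apart. Within that slide, SF1 minus HF5 for H3K4me2 was 1.62 at TEKT3, -0.53 at TEKT4, 2.79 at ROPN1L, 0.65 at RSPH9 and -0.62 at TCTEX1D1. For H3K27me3 it was 0.35, -0.28, 2.97, -0.18 and -2.01 in the same order of genes. TEKT3, ROPN1L, RSPH9 and TCTEX1D1 had the sign of the whole comparison for both marks and TEKT4 did not. SF1 and HF5 are themselves part of the whole comparison, on which genes were chosen, so the shared signs are no independent support.

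The marks were compared in each bull, since both arrays of a bull share its input. H3K4me2 minus H3K27me3 averaged 0.02 ± 0.86 at TEKT3, 0.19 ± 0.26 at TEKT4, 0.64 ± 1.54 at ROPN1L, 0.19 ± 1.72 at RSPH9 and 0.09 ± 0.76 at TCTEX1D1 (SD, n = 6 bulls). All 5 means were smaller than the spread between bulls. The fertility difference in H3K4me2 minus that in H3K27me3 was 0.81 at TEKT3, -0.01 at TEKT4, 1.49 at ROPN1L, 1.04 at RSPH9 and 0.36 at TCTEX1D1. The limma fit of both comparisons had no term for the bull and took all arrays as independent, so it did not use this pairing. In that fit 0 of 6805 genes passed an adjusted p of 0.05 in either comparison. At an unadjusted p under 0.05 it gave 41 and 45 genes (0.602% and 0.661%), which are not counts from a paired test. With the bull as a replicate block, 0 genes passed the adjusted test either. The larger of these differences rested on single bulls: ROPN1L on SF5, without which it was 0.31, and RSPH9 on SF4, without which it was -0.32.

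The rest of the flagellum was read from a list of 146 other symbols, of which 61 were on the array and 42 had at least 2 probes. For H3K4me2, 17 of the 42 lay higher and 25 lower in subfertile bulls, with a median difference of -0.12 against 0.02 over all genes. For H3K27me3 the counts were again 17 and 25, with a median of -0.07 against -0.01. In both marks 0 of the 42 passed the adjusted test, as did 0 of all 6805 genes. An unadjusted p under 0.05 in limma was found for 0 of the 42. Among all genes the share was 2.91% for H3K4me2 and 4.07% for H3K27me3, so nothing is read from these counts. The 5 genes described here had medians of 0.14 and 0.15, with 4 of 5 and 3 of 5 above 0, and 51.8% and 49.3% of all genes lay above 0.

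By structure, the other 2 tektins measured had differences of opposite sign, with TEKT1 at 0.57 for H3K4me2 and 0.46 for H3K27me3 and TEKT5 at -0.06 and -0.18. The 4 other radial spoke genes ranged from -0.79 to 0.47 for H3K4me2, and the 10 dynein genes from -1.27 to 0.81. Of the 9 genes of the fibrous sheath and dense fibres, 4 lay higher and 5 lower for H3K4me2, and 6 higher and 3 lower for H3K27me3. No structural group had a gene past the adjusted test in either direction, and 0 of all 6805 genes passed it.

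The highest H3K4me2 differences among the 42 were CCDC164, a part of the nexin link between doublets, at 1.12, DYNLRB1, a dynein light chain, at 0.81 and PPP1CC, a catalytic subunit of protein phosphatase 1, at 0.74. The lowest were SLC25A31, an ADP/ATP carrier, at -1.44, SPAG6 of the central pair at -1.36, and DNALI1, an inner arm dynein subunit, at -1.27. For H3K27me3 the highest were SPAG4, associated with outer dense fibres, at 0.83, DYNLRB1 at 0.71 and the dynein light chain DNAL4 at 0.67. The lowest were SLC25A31 at -1.05, AKAP3, an anchoring protein of the fibrous sheath, at -0.96 and CCDC164 at -0.89. Single bulls carried much of this order. PPP1CC read 2.86 in SF5 but -0.05 and -0.34 in the other subfertile bulls and -0.02 to 0.15 in high-fertile bulls, and without SF5 its difference was -0.28. As each bull was left out in turn, the H3K4me2 difference ran from 0.15 to 2.1 at CCDC164, from -2.29 to -0.49 at SLC25A31, from -2.13 to -0.7 at SPAG6 and from -1.68 to -0.53 at DNALI1. For H3K27me3 it ran from -1.48 to -0.06 at CCDC164, from -1.56 to -0.19 at AKAP3 and from 0.38 to 1.39 at SPAG4. CCDC164 had an SD of 1.72 in subfertile and 1.81 in high-fertile bulls for H3K4me2. Every one of these 12 differences had an adjusted p of 1 in limma, and ROPN1L and TEKT3 lay above all 42 genes for H3K4me2 as TCTEX1D1 lay below them all for H3K27me3, the 5 genes having been chosen with these values known.

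**Figure D5:**
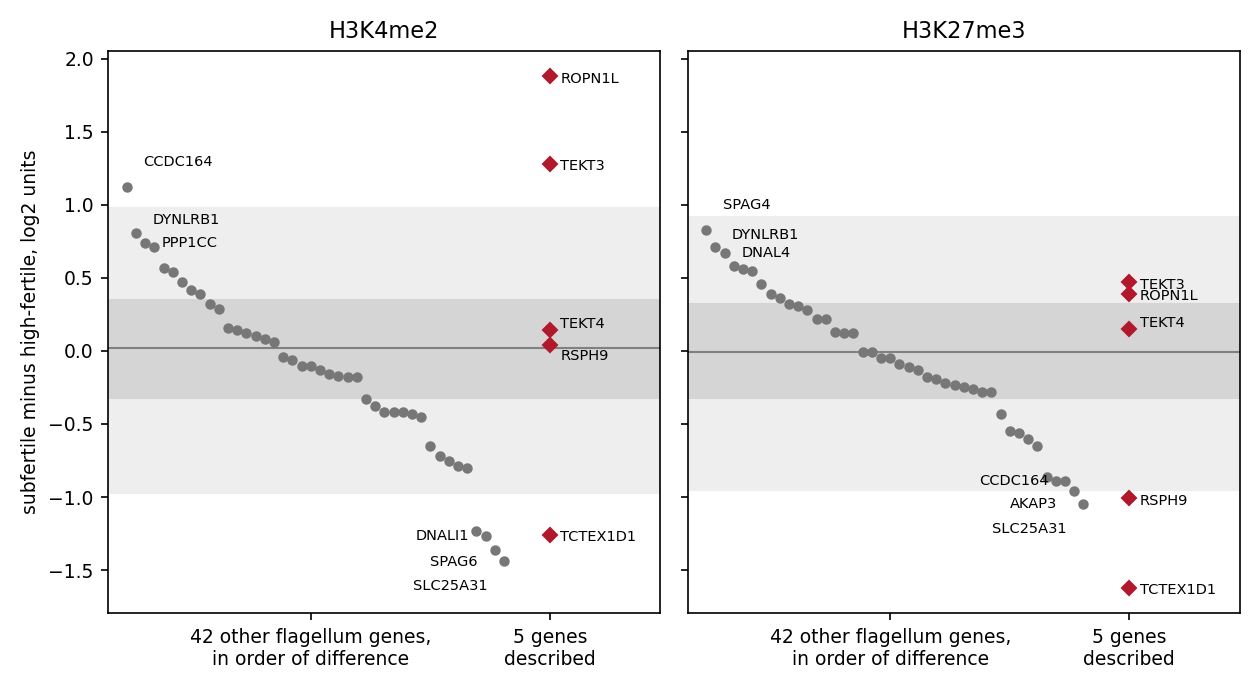
Difference between subfertile and high-fertile bulls in log2 units for the 42 other flagellum genes in order of size (grey points) and the 5 genes described (red diamonds), for each mark. The line is the median of all 6805 genes, and the dark and light bands hold 50% and 90% of them. The grey points run on both sides of 0, with a median of -0.12 for H3K4me2 and -0.07 for H3K27me3.

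Genes elsewhere in the genome with the most similar values over the 12 arrays were looked for by Pearson's r, as a description, since arrays of a bull share input and slide. TEKT3 was most like PRRC2A (r = 0.92) and RPL26L1 (0.85), and TEKT4 most like HEPHL1 and COL27A1 (both 0.93). ROPN1L was most like ETV3 (0.98) and GABPA (0.95), RSPH9 most like MGC137014 (0.84) and PDIK1L (0.8), and TCTEX1D1 most like SNF8 (0.9) and ZC3H10 (0.88). None of these 10 genes is on the flagellum list, which held only 42 of the 6805 genes with at least 2 probes, so nothing is read from that. After within-array loess, which removes the dependence of the ratio on brightness, r was 0.15 for TEKT3 with PRRC2A, -0.51 for TEKT4 with HEPHL1 and 0.62 for ROPN1L with ETV3, and it held best for RSPH9 with PDIK1L and TCTEX1D1 with SNF8.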

How the data were processed

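The members and gene lists were chosen with earlier results of these data known. Per the labels' protocols, cross-linked sperm chromatin was cut with micrococcal nuclease and precipitated, and ChIP and input DNA were amplified by linker-mediated PCR and labelled. The authors made the intensity values with Agilent Feature Extraction 10.7 (per the submitters' processing notes), which subtracts background and normalizes the dyes. The deposited value table holds log2 ratios, as read from the values (r of 0.982 to 0.995 with loess-corrected ratios). With ratios not corrected by loess, as used here, r was 0.74 for SF5 and 0.826 for HF5 in H3K4me2. On the other arrays it ran from 0.849 to 0.994. The scale of the deposited values and their direction, ChIP over input, were settled against the scanner values. Their column medians ran from -0.13 to 0.1, and the method of their correction is not given in the sources used here.

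Here, log2 of processed Cy5 over Cy3 was centred on each array's median. Of 177440 probes, the 177372 with a clear input signal (6 or more of the 12 arrays) were kept. Saturated spots were kept, and spots the authors' software marked as outliers were set missing. Genes took the mean of their kept probes, 2 or more (6805 genes). Groups were compared with limma 3.58.1 in R 4.3.3 (lmFit, eBayes, two-sided, Benjamini-Hochberg at 0.05), and the fits were checked on simulated data. The number of arrays limits the precision. Bulls are separate animals, and both arrays of a bull carry the input of 1 animal per the labels: input deviations correlated at 0.949 or more within a bull and at most 0.186 between bulls, and ratio deviations at 0.32 to 0.75 within a bull. Named genes besides the 5 were the 3 highest and 3 lowest of the flagellum list per mark and the 2 genes most like each member by r (at least 3 probes, 1 chromosome, another than the member's). Alternatives were other corrections of brightness, background and G and C content, other probe summaries, a common input, and leaving out bulls.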

Additional observations from a re-analysis of the deposited data

How the results depend on the processing

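The number of genes and of probes past an adjusted p of 0.05 stayed at 0 under every alternative run, for all comparisons of marks, groups and input. With the bull as a replicate block, 0 genes passed for H3K4me2 minus H3K27me3 and 0 for the difference of the fertility differences, also with adjustment for G and C share, and pairing by bull changed no call. Of the differences between subfertile and high-fertile bulls in H3K4me2, TEKT3 and ROPN1L kept their sign under every alternative run, and so did TCTEX1D1 and RSPH9 in H3K27me3.

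Signs turned as follows, also for differences as large as -1.26 at TCTEX1D1 and 1.12 at CCDC164, and the cause was not tested. With loess, the H3K4me2 difference was -0.15 at TEKT4, H3K4me2 minus H3K27me3 was -0.19 at TEKT3 and -0.12 at TCTEX1D1, and TEKT3 over input was -0.28 and -0.09. In the deposited table, the H3K4me2 difference was -0.2 at TEKT4, -0.06 at RSPH9 and -0.06 for the median of the 5 genes. With those values H3K4me2 minus H3K27me3 was -0.23 at TEKT3 and -0.05 at TCTEX1D1. TEKT3 over input was then -0.32 and -0.09, and ROPN1L H3K4me2 over input was -0.02. With normexp, RSPH9 was -0.07 for H3K4me2. With the bull block and G and C adjustment, H3K4me2 minus H3K27me3 at TEKT3 was -0.03. Against the mean input of the 6 bulls, TCTEX1D1 was 0.02 and DYNLRB1 -0.02 for H3K4me2, and ROPN1L was -1.26, DYNLRB1 -0.17 and the median of the 5 genes -0.18 for H3K27me3. With spots near background left out, an alternative chosen after seeing the data, as was averaging overlapping probes first, CCDC164 was 0.25 for H3K27me3. Within the slide of SF1 and HF5, TEKT4 was -0.53 and PPP1CC -0.18 for H3K4me2, and TEKT4 was -0.28, SPAG4 -0.18, DYNLRB1 -0.6, CCDC164 0.61 and the median of the 5 genes -0.18 for H3K27me3. Without SF5 and HF5, TEKT4 was -0.06, CCDC164 -0.65 and PPP1CC -0.26 for H3K4me2.

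As each bull was left out in turn, the H3K4me2 difference ran from -0.72 to 0.81 at RSPH9, -0.15 to 0.38 at TEKT4 and -0.28 to 1.32 at PPP1CC. The H3K27me3 difference ran from -0.3 to 0.79 at ROPN1L and from -0.3 to 0.13 for the median of the 5 genes, with -0.2 without SF1 and -0.3 without HF5. H3K4me2 minus H3K27me3 ran from -0.2 to 0.27 at TEKT3, -0.49 to 0.54 at RSPH9 and -0.1 to 0.34 at TCTEX1D1. The difference of the fertility differences ran from -0.24 to 0.12 at TEKT4, -0.14 to 0.74 at TCTEX1D1 and -0.32 to 1.76 at RSPH9. H3K4me2 over input ran from -0.08 to 0.27 at TEKT3, -0.31 to 0.42 at ROPN1L and -0.15 to 0.34 at TCTEX1D1, H3K27me3 over input from -0.07 to 0.09 at TCTEX1D1, and the input difference from -0.29 to 0.33 at RSPH9. Signal near background limits ROPN1L and TCTEX1D1 most, whose spots were dim in either colour.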
